A study of Rattus norvegicus with 6 samples.

Results

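Sonic hedgehog is a secreted signalling protein, and the genes described here encode that ligand, its receptors and the transcription factors at the end of its pathway: Shh, Ptch1, Smo, Gli1, Gli2, Hhip, Boc, Cdon and Gas1. The members were chosen by gene name in the deposited tables, and 8 of the 9 names were measured among 30498 genes; Gas1 was not analysed here. The study sequenced polyadenylated RNA of the brain in rats (Rattus norvegicus) on the day of birth. The CR group came from dams on caloric restriction, which serves as a model of fetal growth restriction, and the control group came from dams labelled as control. Delivery was by Caesarean section in both groups, the brain was dissected immediately, and the labels call all 6 samples whole brain. Neither strain, sex, nor the length and degree of the restriction is given in the labels used here. Each group had 3 libraries, and the labels do not state whether these were different pups or litters, so that p-values measure only the spread between these libraries. The Y-linked gene Eif2s3y was at 42.6, 0 and 38.9 FPKM in CR replicates 1 to 3 and at 0, 0 and 43.4 FPKM in the control libraries, and Kdm5d, also Y-linked, had reads in the same 3 libraries. By these 2 genes each group held libraries with and without Y-linked RNA, 2 of 3 with it in CR and 1 of 3 in control. The Y-linked gene Ddx3y did not follow this split and was at 0.109 to 0.411 FPKM across all 6 libraries.

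In the developing brain, Sonic hedgehog is released from ventral midline structures such as the floor plate and, in the cerebellum, from Purkinje cells. It binds Patched, which otherwise holds the transmembrane protein Smoothened inactive, and active Smoothened lets GLI transcription factors switch on target genes. Among these targets are Ptch1, Hhip and Gli1 themselves, so that the first pair form negative feedback and Gli1 is a widely used readout of the pathway.

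The libraries held 14030961 to 25734737 gene-assigned reads, calculated from the deposited FPKM values (fragments scaled to the exon length of the gene and the depth of the library). A count of 3 reads on 1 kb of exon was worth 0.117 to 0.214 FPKM. Regional markers differed widely between the groups. All 30 measured markers of thalamus, hypothalamus, midbrain and hindbrain were higher in each CR library than in each control library. Their FPKM summed to 163 to 223 in CR libraries and to 11.98 to 28.9 in control libraries. Rax, Pou4f2, Hoxb3 and Hoxb5 among them had no read in any control library. In CR replicates 1 to 3, Rax had only 1, 6 and 7 reads and Pou4f2 had 283, 374 and 279. Hoxb3 had 49, 49 and 308 reads there and Hoxb5 had 19, 16 and 566. Of 9 dorsal telencephalic markers 8 were lower in each CR library than in each control library, with sums of 154 to 237 FPKM in CR and 416 to 516 FPKM in control. CR replicate 3 stood apart in hindbrain markers, which summed to 54.7 FPKM there. The other CR libraries had sums of 10.8 FPKM (replicate 1) and 9.78 FPKM (replicate 2), and the control libraries had 0.295 to 0.436 FPKM. Neuronal markers were high in all 6 libraries, with sums of 1605 to 1656 FPKM in CR and 1698 to 1949 FPKM in control. Tubb3 made up most of those sums, with means of 1276 FPKM in CR and 1465 FPKM in control. Of the 5 neuronal markers, Snap25 and Syt1 had CR values above control values, Tubb3 and Map2 had them below, and Rbfox3 overlapped. Astrocyte markers summed to 167 to 194 FPKM in CR and 85.7 to 119 FPKM in control, and microglial markers to 36.8 to 42.6 FPKM in CR and 21.8 to 29.0 FPKM in control. The part of these regional differences in the results below was not tested. Both the diet of the dams and the regional markers differed by group, so the diet cannot be told apart from the regional make-up of the libraries. In whole tissue fewer cells of a type and less RNA per cell cannot be told apart either.

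Setting CR against control addresses which genes differ in expression between these groups of libraries, which also differed in the regional markers above. Ptch1 was higher in CR, Cdon was lower, and Smo, Boc, Gli1, Gli2 and Hhip did not pass the threshold. Shh was also called higher, but that call depended on the filter described below. The test was limma on log2(FPKM + 1) across 15247 genes, with p-values adjusted by the Benjamini-Hochberg method over all of them and called below 0.05. A log2 fold change below is the CR mean minus the control mean of these log values, and it is smaller than the change in FPKM where a gene is low. A gene entered the test if it averaged 0.5 FPKM or more across all libraries. By this test 3 of 8 members were called, 2 higher and 1 lower, against 33.9% of all genes tested (17.7% higher and 16.2% lower). Shh, 1 of the 2 higher, entered the test only through its CR values. With no filter on low values Shh was not called (limma adjusted p = 0.0604). The members called were then 2 of 8, Ptch1 and Cdon, against 4534 of 23944 genes. The groups did not overlap in 5 of the 8 members, 3 above and 2 below in CR, against 50.3% of all genes tested (26.1% above and 24.3% below). Both shares were near the background. The median absolute log2 fold change was 0.25 over the 8 members and 0.20 over all genes tested. Without CR replicate 3 the count of members called was 1.

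**Figure D1:**
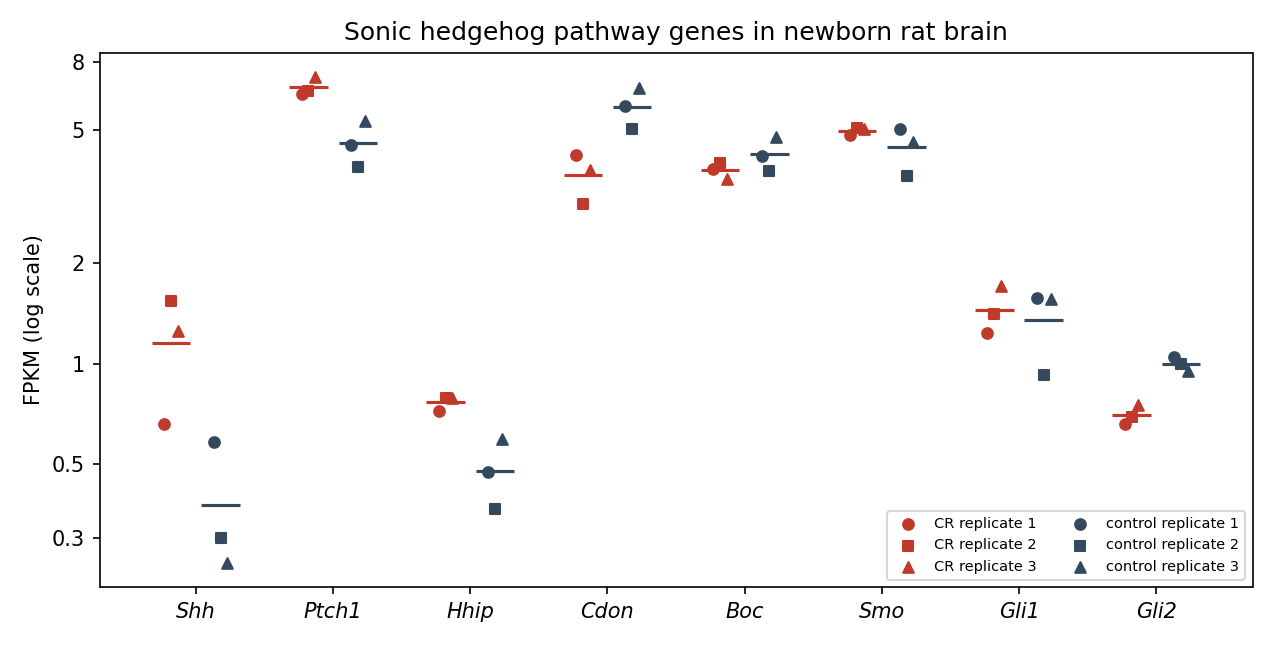
FPKM (log axis) of the 8 measured Sonic hedgehog pathway genes in each of the 3 CR and 3 control libraries; each point is a library, its shape gives the replicate number, and each line is a group mean. Shh, Ptch1 and Hhip lay above control in all 3 CR libraries, Cdon and Gli2 lay below, and Boc, Smo and Gli1 overlapped.

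The ligand gene Shh (ENSRNOG00000006120) lies on chromosome 4 from 6954017 to 6963170 on the plus strand of mRatBN7.2, the build of the deposited tables. It was at 0.658, 1.54 and 1.25 FPKM in CR replicates 1 to 3 (25, 68 and 55 reads) and at 0.582, 0.299 and 0.253 FPKM in control (14, 13 and 8 reads), and values below keep this order of replicates. The groups did not overlap, but CR replicate 1 lay close to control replicate 1. The exact Poisson interval was 0.426 to 0.971 FPKM in CR replicate 1, within that of control replicate 1, 0.318 to 0.976 FPKM; these 95% intervals cover counting error only. The means were 1.15 ± 0.450 FPKM in CR and 0.378 ± 0.178 FPKM in control (SD, n = 3 each), a 3.04-fold difference.

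On the log2(FPKM + 1) scale Shh was higher by 0.63 (SE 0.182, limma adjusted p = 0.0330). Its control mean lay under the 0.5 FPKM needed for the test, so the gene was tested only through its CR values, and the same holds for Hhip. The log2 fold change was 1.37 with a pseudocount of 0.1 (adjusted p = 0.0338) and 1.66 with limma-voom on the reads (adjusted p = 0.0149). The call was lost without CR replicate 2 (limma adjusted p = 0.114), without CR replicate 3 (0.102), without control replicate 2 (0.0860), without control replicate 3 (0.0809), with no filter on low values (0.0604), with quantile normalization (0.0673) and with the replicate number as a block (0.0648).

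In the same libraries 7 of 8 measured markers listed for the floor plate and ventral midline had all CR values above all control values, while the sums over all 8 overlapped, at 42.3 to 44.9 FPKM in CR and 34.7 to 42.8 FPKM in control. Of these, Lmx1a, a transcription factor gene of the midbrain floor plate, was at 3.22, 3.29 and 2.80 FPKM in CR and at 1.05, 0.497 and 0.384 FPKM in control. Corin, a protease gene of the floor plate, had 6, 4 and 31 reads in CR and no read in any control library. The 4 measured Purkinje cell markers had CR values above control values, with sums of 65.9 to 80.1 FPKM in CR and 38.1 to 55.2 FPKM in control, and Skor2 among them had no read in any control library. Gad1 and Calb1, which other neurons express too, made up most of those sums, and Pcp2, a Purkinje cell gene, was at 12.1, 9.04 and 3.10 FPKM in CR and 1.18, 0.524 and 1.08 FPKM in control. The part of either cell type in the level of Shh was not tested.

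The genes whose pattern over the 6 libraries was most like that of Shh were Catip, Tmem243 and Spa17. Likeness was the root mean square difference of log2(FPKM + 1) after each gene was centred on its own mean, among 12354 genes with a symbol and a mean of at least 1 FPKM. That difference was 0.0525 for Catip, 0.0722 for Tmem243 and 0.0756 for Spa17, where Shh itself varied by 0.377 around its mean on the same scale. Catip was at 2.36, 3.72 and 3.25 FPKM in CR and at 2.03, 1.33 and 1.38 FPKM in control. The genes were picked for this likeness, so their levels are a description. Exons of Tmem243 overlap those of Dmtf1 on the opposite strand, and reads of such genes may not have been told apart because no source used here states whether the counting used strand.

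Ptch1 (ENSRNOG00000019354), the gene of the Patched receptor and a target of the pathway, lies on chromosome 17 from 1542877 to 1607333 on the plus strand of mRatBN7.2. It was at 6.41, 6.57 and 7.21 FPKM in CR and at 4.53, 3.88 and 5.32 FPKM in control, from 434 to 1264 reads a library. All CR libraries were above all control libraries. Ptch1 was 1.47-fold higher in CR, at 6.73 ± 0.424 FPKM in CR and 4.58 ± 0.721 FPKM in control (SD, n = 3 each), with a log2 fold change of 0.48 (SE 0.108, limma adjusted p = 0.0131). Without CR replicate 3, the library with the highest value and with most hindbrain marker RNA, the log2 fold change was 0.43 and the adjusted p was 0.0557.

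Hhip (ENSRNOG00000018268), which encodes a membrane protein that binds and sequesters hedgehog ligands and is likewise a target, lies on chromosome 19 from 27863213 to 27952528. It was at 0.719, 0.787 and 0.788 FPKM in CR (48, 61 and 61 reads) and at 0.473, 0.367 and 0.594 FPKM in control (20, 28 and 33 reads). The CR libraries lay close together and above each control library. The ratio of the means was 1.60. With a log2 fold change of 0.26 (SE 0.112) the gene was not called (limma adjusted p = 0.112). Hhip was called with limma-voom on the reads (0.73, adjusted p = 0.0435), which called 37.9% of all genes tested, and with limma without the trend (0.26, adjusted p = 0.0389), which called 32.0%. Both of these fits kept the filter, which Hhip passed only through its CR values. With no filter on low values Hhip was not called (limma adjusted p = 0.0717).

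The windows at the gene starts of Ptch1 and Hhip are shown because both are pathway targets and both had CR values above control values. The windows come from RefSeq on assembly GRCr8, run from 250 bases before to 50 bases after the gene start, and were matched by symbol; 6 of the 9 members had one. They were searched on both strands for the 9-base GLI consensus TGGGTGGTC (GACCACCCA on the other strand), which is in capitals where it was found. The Ptch1 window is chr17:1555321-1555620 and the Hhip window is chr19:44767788-44768087, both on the plus strand.
Ptch1: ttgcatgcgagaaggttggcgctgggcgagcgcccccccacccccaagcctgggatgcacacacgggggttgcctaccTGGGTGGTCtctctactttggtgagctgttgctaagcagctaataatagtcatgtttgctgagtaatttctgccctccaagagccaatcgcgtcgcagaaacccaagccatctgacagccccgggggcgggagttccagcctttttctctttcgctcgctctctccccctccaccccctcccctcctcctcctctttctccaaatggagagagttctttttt
Hhip: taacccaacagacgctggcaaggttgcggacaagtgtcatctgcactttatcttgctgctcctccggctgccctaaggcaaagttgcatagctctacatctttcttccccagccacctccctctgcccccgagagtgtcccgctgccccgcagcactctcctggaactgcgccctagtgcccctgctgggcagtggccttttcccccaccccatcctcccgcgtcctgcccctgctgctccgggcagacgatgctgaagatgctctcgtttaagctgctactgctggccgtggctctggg
The Ptch1 window holds the motif once, at bases 79 to 87, and its first base lies 172 bases before the gene start. The motif was not found in the windows of Hhip, Smo, Gli2, Boc or Cdon. The 50 bases after the gene start of Hhip begin with atg, so that start may be the coding start and not the start of transcription. Whether a window holds the promoter was not tested, and sites outside the windows were not searched. It was found in 129 of 33469 windows of all genes (0.385%). A match is a run of letters and not a measured binding site.

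**Figure D2:**
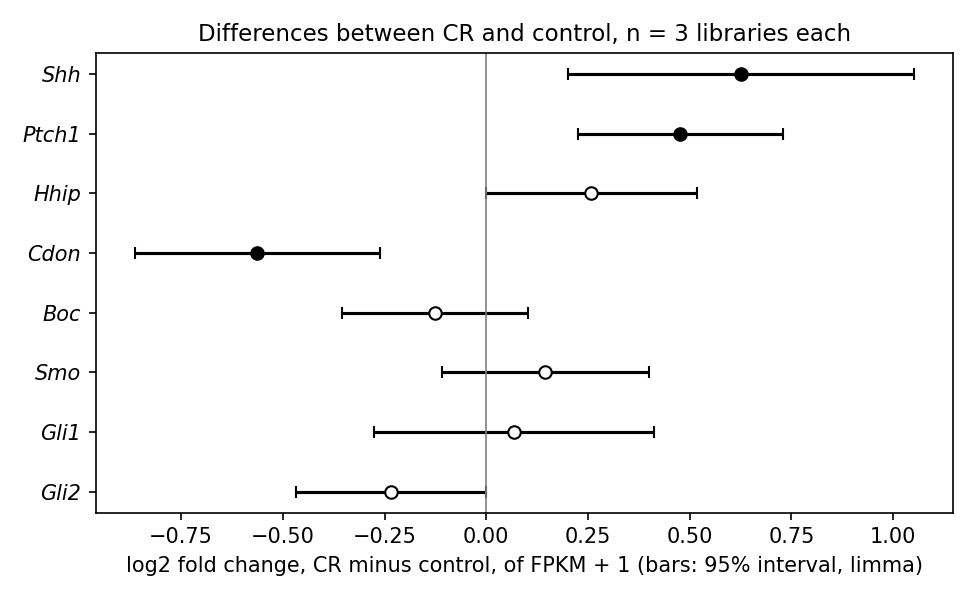
Log2 fold change of FPKM + 1, CR minus control, for the 8 measured genes; points are limma estimates, bars are 95% intervals not adjusted for the number of genes, and filled points had an adjusted p under 0.05. Shh (0.63) and Ptch1 (0.48) lie to the right of 0 and Cdon (-0.56) to the left. Shh was tested only through its CR values and was not called with no filter on low values.

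Cdon (ENSRNOG00000011789) encodes a cell-surface co-receptor that binds hedgehog ligand and lies on chromosome 8 from 33806183 to 33859033 on mRatBN7.2. It was at 4.20, 3.01 and 3.80 FPKM in CR and at 5.91, 5.06 and 6.71 FPKM in control, from 354 to 586 reads a library. Each CR library was below each control library. Cdon was 1.60-fold lower in CR, at 3.67 ± 0.608 FPKM in CR and 5.89 ± 0.824 FPKM in control (SD, n = 3 each), with a log2 fold change of -0.56 (SE 0.130, limma adjusted p = 0.0141). It was past the threshold in all 17 alternatives run, with adjusted p from 0.00434 to 0.0473. The summed dorsal telencephalic markers were 2.39-fold lower in the same CR libraries, and their part in the level of Cdon was not tested.

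Boc (ENSRNOG00000002041) encodes a co-receptor related to Cdon and lies on chromosome 11 from 56122750 to 56198059. It was at 3.82, 4.001 and 3.58 FPKM in CR and at 4.19, 3.77 and 4.79 FPKM in control. The groups overlapped, and the log2 fold change was -0.13 with a 95% interval from -0.35 to 0.10 (limma adjusted p = 0.355).

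Smo (ENSRNOG00000008332), the gene of the signal transducer Smoothened, lies on chromosome 4 from 58343529 to 58373829. It was at 4.84, 5.07 and 5.05 FPKM in CR and at 5.06, 3.65 and 4.62 FPKM in control. The CR values fell within 0.3 FPKM of each other while control replicate 2 was low. The log2 fold change was 0.14 with a 95% interval from -0.11 to 0.40 (limma adjusted p = 0.340).

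Gli1 (ENSRNOG00000025120), a transcriptional activator and target of the pathway, lies on chromosome 7 from 63156926 to 63169251. It was at 1.24, 1.41 and 1.71 FPKM in CR and at 1.57, 0.922 and 1.56 FPKM in control, from 82 to 163 reads a library. The groups overlapped, with the lowest value in control replicate 2 and the highest in CR replicate 3. The log2 fold change of 0.068 (95% interval from -0.28 to 0.41, limma adjusted p = 0.751) took the other sign in 3 of 16 alternatives. Exons of Gli1 overlap those of Arhgap9 on the opposite strand, which averaged 0.299 FPKM in CR and 0.229 FPKM in control.

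Gli2 (ENSRNOG00000007261), which encodes the main activator form among the GLI proteins, lies on chromosome 13 from 29946809 to 30163574. It was at 0.657, 0.691 and 0.750 FPKM in CR (99, 121 and 131 reads) and at 1.05, 0.998 and 0.949 FPKM in control (100, 172 and 119 reads). Each CR library was below each control library, and the spread within a group was small, with means of 0.699 ± 0.0470 FPKM in CR and 0.998 ± 0.0493 FPKM in control (SD, n = 3 each). With a log2 fold change of -0.23 the gene was not called (limma adjusted p = 0.109), although the unadjusted 95% interval, -0.47 to -0.0012, left out 0. Gli2 was called with limma-voom on the reads (-0.51, adjusted p = 0.0199), with quantile normalization (-0.37, adjusted p = 0.0267), which called 34.8% of all genes tested, and with limma without the trend (-0.23, adjusted p = 0.0242).

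The order of the levels, compared per exon length in FPKM, differed between the groups. In CR, Ptch1 was highest (6.73 FPKM), followed by Smo (4.99), Boc (3.80), Cdon (3.67), Gli1 (1.45), Shh (1.15), Hhip (0.765) and Gli2 (0.699 FPKM). Ptch1 and Smo were each apart from the next gene in every CR library, whereas the ranges of Boc and Cdon met, as did those of each neighbouring pair from Gli1 down to Gli2. In control, Cdon was highest (5.89 FPKM), followed by Ptch1 (4.58), Smo (4.45), Boc (4.25), Gli1 (1.35), Gli2 (0.998), Hhip (0.478) and Shh (0.378 FPKM). The ranges of neighbouring genes from Cdon to Boc met in control, as did those of Gli1 with Gli2 and of Hhip with Shh.

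Ratios between members within a library do not depend on how libraries were scaled to each other, and 4 were computed after the levels had been seen. The ratio of Ptch1 to Cdon was 1.52, 2.19 and 1.90 in CR and 0.768, 0.768 and 0.794 in control, so that the receptor gene was above the co-receptor gene in every CR library and below it in every control library. The ratio of Ptch1 to Smo was 1.33, 1.30 and 1.43 in CR and 0.896, 1.06 and 1.15 in control. The ratio of Gli2 to Gli1 was 0.531, 0.490 and 0.440 in CR and 0.667, 1.08 and 0.608 in control. The ratio of Boc to Cdon, the co-receptor pair, was 0.908, 1.33 and 0.942 in CR and 0.710, 0.745 and 0.714 in control. The groups did not overlap in these 4 ratios, which are a description with no test, since they were chosen by the levels; for Ptch1 to Cdon the levels of both genes already fix it.

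**Figure D3:**
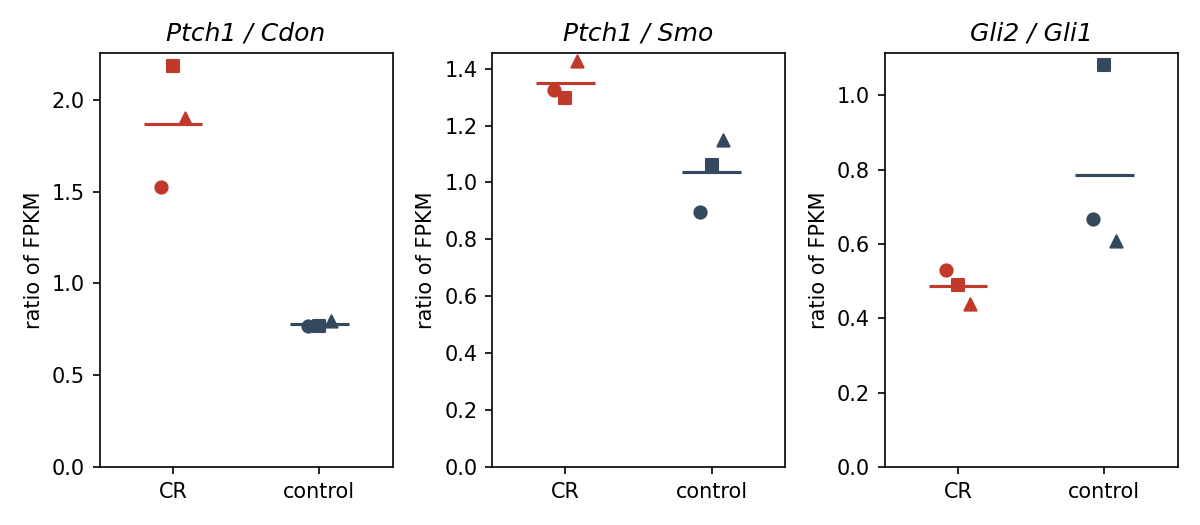
Ratio of the FPKM of 2 genes within each library, for Ptch1 to Cdon, Ptch1 to Smo and Gli2 to Gli1; points are libraries with the replicate number as shape, and lines are means of the 3 CR and 3 control libraries. The ratio of Ptch1 to Cdon lies between 1.52 and 2.19 in CR and between 0.768 and 0.794 in control.

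Other genes of the pathway were counted in 5 lists by role. Of 54 tested genes 12 were higher in CR, 10 were lower and 32 did not pass, so that 40.7% were called against 33.9% of all genes tested, with a median log2 fold change of 0.02 against 0.01 over all genes. Among genes for ligands and their release, 1 of 3 tested genes was called (33.3%). Scube1, whose family of secreted proteins helps release hedgehog ligands, was lower at 5.90, 4.63 and 5.66 FPKM in CR against 11.1, 10.7 and 9.65 FPKM in control (log2 fold change -0.85, SE 0.0976, limma adjusted p = 0.00131). Disp1, the exporter of the lipid-modified ligand, was at 2.48 ± 0.157 FPKM in CR and 2.79 ± 0.566 FPKM in control and did not pass (adjusted p = 0.536). The other ligand genes Ihh and Dhh were at or below 0.328 FPKM in each library, under the mean of 0.5 FPKM needed for the test.

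Among genes for reception at the cell surface, 1 of 5 tested genes was lower and none was higher, a share of 20% against 33.9% of all genes tested. Mosmo, whose product lowers Smoothened at the cell surface, was at 3.70 ± 0.148 FPKM in CR and 5.03 ± 0.735 FPKM in control (log2 fold change -0.35, limma adjusted p = 0.0341), a call that was lost with any 1 CR replicate left out (adjusted p = 0.0842 to 0.0973), without control replicate 3 (0.0537), with the replicate block (0.0506) and with no filter on low values (0.0705).

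Among the GLI factors and their regulators, 5 of 14 tested genes were called, 2 higher and 3 lower. That share of 35.7% was near the 33.9% of all genes tested. Gli3, the main repressor of the family, was at 1.99, 1.73 and 1.84 FPKM in CR and at 2.10, 2.28 and 2.12 FPKM in control, and Sufu, which retains GLI proteins in the cytoplasm, averaged 4.18 ± 0.0759 FPKM in CR and 4.51 ± 0.132 FPKM in control. Neither passed (limma adjusted p = 0.245 for Gli3 and 0.391 for Sufu), although in both each CR library was below each control library. Gpr161, a ciliary receptor that restrains the pathway, was lower at 13.4 ± 0.587 FPKM in CR against 20.0 ± 1.24 FPKM in control (log2 fold change -0.54, adjusted p = 0.00136). Prkaca and Prkacb, which encode catalytic subunits of protein kinase A, the kinase that marks GLI proteins for processing into repressors, were higher. Prkaca averaged 26.2 ± 0.596 FPKM in CR and 20.8 ± 0.719 FPKM in control (0.32, adjusted p = 0.00316), and Prkacb averaged 93.6 ± 5.47 FPKM in CR and 76.3 ± 3.38 FPKM in control (0.29, adjusted p = 0.00799). Stk36, a kinase gene related to fly fused, was lower (-0.41, adjusted p = 0.0192), a call lost without CR replicate 1 (0.0612), without CR replicate 2 (0.0746) and without control replicate 1 (0.0567).

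Hedgehog signals pass through the primary cilium, and 4 of 15 tested cilium genes were called, 2 higher and 2 lower. That share of 26.7% was below the 33.9% of all genes tested. Ift52, an intraflagellar transport subunit, was higher at 23.6 ± 0.816 FPKM in CR against 16.7 ± 0.655 FPKM in control (log2 fold change 0.47, limma adjusted p = 0.00127). Iqce, which helps anchor the ciliary EVC complex, was higher (0.25, adjusted p = 0.0340). Arl13b, a ciliary GTPase gene, was lower (-0.30, adjusted p = 0.0210), as was Dync2h1, the heavy chain of the retrograde cilium motor (-0.27, adjusted p = 0.0408). The calls of Iqce, Arl13b and Dync2h1 were each lost when single libraries were left out: any but control replicate 1 for Iqce, CR replicates 1 and 3 and control replicates 1 and 2 for Arl13b, and any of the 6 for Dync2h1, with adjusted p up to 0.123, 0.0807 and 0.120 in that order. Iqce and Dync2h1 were also lost with the replicate block (adjusted p = 0.07998 for Iqce and 0.0752 for Dync2h1), with the Y-linked covariate (0.0600 and 0.0712) and with no filter on low values (0.0509 and 0.0683).

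**Figure D4:**
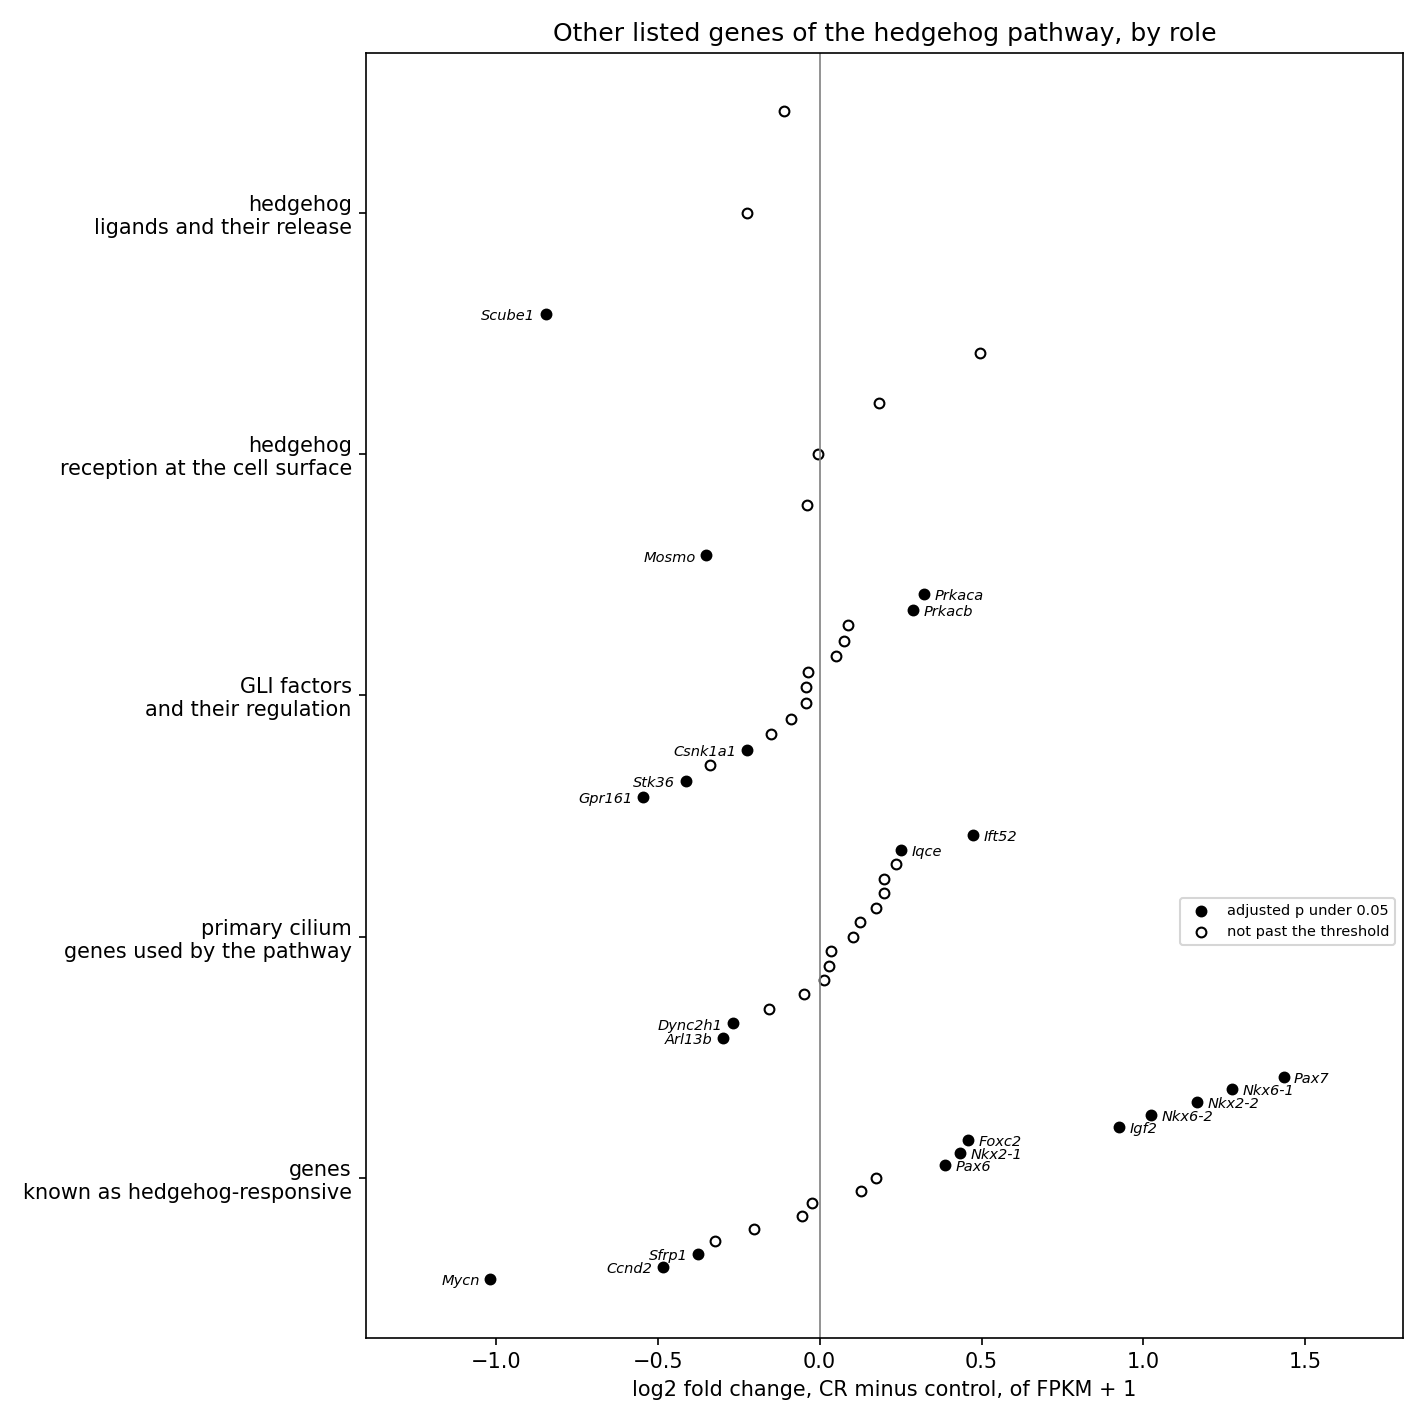
Log2 fold change of FPKM + 1, CR minus control, for the 54 tested genes of 5 role lists that are not members; each point is a gene, filled and named where the limma adjusted p was under 0.05. Of these genes 12 lie to the right of 0 and 10 to the left among the filled points, and the widest spread is among genes known as hedgehog-responsive.

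Among genes known to respond to hedgehog signals in some tissue, 11 of 17 tested genes were called (64.7%), 8 higher and 3 lower, against 33.9% of all genes tested (17.7% higher and 16.2% lower). Of the 8 higher genes 3, Nkx6-1, Nkx6-2 and Pax7, had a control mean under 0.5 FPKM and were tested only through their CR values, so the count is no support for a direction; their p-values below come from the fit with no filter on low values. The 4 largest increases were in transcription factor genes of the ventral or dorsal neural tube. Nkx2-2, a ventral gene induced by the ligand, was at 2.43, 2.87 and 3.02 FPKM in CR and at 0.665, 0.708 and 0.662 FPKM in control (limma adjusted p = 0.000577). Nkx6-1, likewise ventral, was at 1.54, 1.26 and 1.79 FPKM in CR and had 2 to 3 reads in each control library (limma adjusted p = 0.00243). Nkx6-2 was at 1.53, 0.981 and 1.81 FPKM in CR and at 0.281, 0.311 and 0 FPKM in control (limma adjusted p = 0.0120). Pax7 was at 1.69, 1.70 and 1.71 FPKM in CR with no read in any control library (limma adjusted p = 0.00124), and the gene is known to be repressed rather than induced by the ligand in the neural tube. Pax6, also repressed there and named after its values were seen, was called higher at 14.4, 13.3 and 11.3 FPKM in CR and 11.6, 9.12 and 8.48 FPKM in control (limma adjusted p = 0.0482), with groups that overlapped. That call was lost without CR replicate 1 (0.141), without CR replicate 2 (0.134), without control replicate 2 (0.124), without control replicate 3 (0.114), with no filter on low values (0.0980) and without the trend (0.0678). Nkx2-2 is also in the floor plate list above. The Nkx genes and Pax7 are expressed in regions of the hypothalamus, midbrain or brainstem, and the summed markers of thalamus, hypothalamus, midbrain and hindbrain were 9.10-fold higher in CR. The part of these regions in the levels of the Nkx genes and Pax7 was not tested.

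The 3 lower genes of that list, named after their values were seen, were Mycn, Ccnd2 and Sfrp1. Mycn, a growth-promoting transcription factor gene induced by the ligand in cerebellar granule cell precursors, was 2.09-fold lower at 17.3 ± 1.43 FPKM in CR against 36.2 ± 4.44 FPKM in control (log2 fold change -1.02, SE 0.0985, limma adjusted p = 0.000717). The cyclin gene Ccnd2 was at 25.3 ± 2.87 FPKM in CR and 35.7 ± 3.00 FPKM in control (-0.49, adjusted p = 0.00674). Sfrp1, which encodes a secreted Wnt modulator, was at 15.9 ± 1.88 FPKM in CR and 20.9 ± 2.81 FPKM in control (-0.38, adjusted p = 0.0385), a call lost without CR replicate 2 (0.125), without CR replicate 3 (0.0948), without control replicate 1 (0.104), without control replicate 2 (0.102), with no filter on low values (0.0815), with quantile normalization (0.0532), without the trend (0.0604) and with the Y-linked covariate (0.0749). Of the 6 measured markers listed for granule cell precursors, 4 had CR values above control values, 1 had them below and 1 overlapped. Atoh1, their defining factor, was at 0.605, 0.428 and 0.205 FPKM in CR and at 0.0342, 0.0189 and 0.0260 FPKM in control. It had only 28, 23 and 11 reads in CR and 1 read in each control library. Neurod1, the marker of that list with the highest mean, was the 1 below. Its values were 16.0, 18.6 and 15.9 FPKM in CR and 25.6, 21.2 and 25.6 FPKM in control (limma adjusted p = 0.00662). The part of that cell type in the levels of Mycn and Ccnd2 was not tested.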

How the data were processed

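The authors deposited FPKM for each Ensembl gene, with exon lengths. The submitters' processing notes name Trim Galore 0.4.4, Trimmomatic 0.36, STAR 2.7.10a, featureCounts 2.0.1 and cutadapt 1.16, without roles, and the build mRatBN7.2; per the labels' protocols the library kit was stranded. Values were whole multiples, within 0.05, of the worth of 1 read in 100% of cases, which gave reads per gene. Libraries within a group were further apart than counting error (mean chi-square of 6.63 to 15.6).

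Testing used limma 3.58.1 in R 4.3.3 on log2(FPKM + 1), with a mean-variance trend and group alone in the model, two-sided, for genes averaging 0.5 FPKM or more; it was tested on simulated data. A symbol with several IDs was read from the ID with the highest mean. Named genes are the measured members, up to 4 called genes of each role list by size, Gli3, Sufu and Disp1 in any case, the 3 genes most like Shh, and others where the text says so or as markers. Some genes that the rule or a list holds are not reported here. The members and lists were chosen with earlier results of these data known. The 17 alternatives were 2 other pseudocounts (0.1 and 0.5), no filter, a filter at 2 FPKM, 2 other scalings (size factors by median ratio, and quantile), limma without trend, robust limma, the replicate block, limma-voom on reads, a covariate for Y-linked RNA, and each library left out.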

Additional observations from a re-analysis of the deposited data

How the results depend on the processing

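The counts of calls and the fold changes of the members and the named pathway genes were recomputed under 17 alternatives, or 16 for genes under the filter at 2 FPKM; levels, ratios and marker sums were not. The count of genes called was 4445 with the replicate block and, with each library left out, 3210 to 5042, the lowest without CR replicate 2 and next without CR replicate 3 (3308). The count of members called was 5 with limma-voom on reads and with limma without the trend, where Gli2 and Hhip joined Shh, Ptch1 and Cdon. In both fits Shh and Hhip were tested only through their CR values. The count of members called was 2 with the replicate block, where Shh was lost, and 1 to 3 with each library left out, with Cdon alone past the threshold without CR replicate 3. The count of other pathway genes called was 22, or 18 with the replicate block and 14 to 19 with each library left out, the lowest without CR replicate 2. Same-numbered libraries had correlations of their deviations from the group means of 0.0269, 0.0224 and 0.0587, so the replicate numbers were not taken to pair the libraries. Gli1, never past the threshold, changed sign with quantile normalization (-0.056), without CR replicate 3 (-0.0053) and without control replicate 2 (-0.071); with each library left out it ran from -0.071 to 0.14. No other member and no named pathway gene changed sign under the alternatives run. The filter at 2 FPKM left 4 members tested, so Shh, Gli1, Gli2 and Hhip have no value there. Over the 8 members 116 of 132 values kept their direction and their side of the threshold, as did 309 of 353 over the named pathway genes. Depth limits Shh and Hhip most, with 8 to 68 and 20 to 61 reads a library.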
